A study of Mus musculus with 20 samples.

Results

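The cytoplasmic ribosomal protein genes, which encode the proteins of the large and small ribosomal subunits, were followed in cultured mouse T cells. Members were the protein-coding genes whose mouse symbols have the form Rpl or Rps with a number, Rplp with a number, or Rpsa. This took 83 of the 49671 genes of the count table, 51 of the large and 32 of the small subunit. Of these, 77 encode the standard ribosomal proteins and 6 are paralogs (Rpl3l, Rpl7l1, Rpl10l, Rpl22l1, Rpl39l and Rps27l). Another 6 genes of matching name are annotated as pseudogenes and were left out. A count in some library was present for 82 members, and 81 passed the filter on low counts and were tested. Rpl10l, with 0 counts, and Rpl3l, with 4 counts over the 20 libraries, were not tested.

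A ribosome is built from ribosomal RNA and a fixed set of ribosomal proteins, most of them present once per particle, so cells make the mRNAs of nearly all of these proteins in a coordinated way. In mammals these mRNAs begin with a run of pyrimidines, the 5′ terminal oligopyrimidine (TOP) motif, through which the kinase mTOR and the RNA-binding protein LARP1 control their translation and stability. Activated T cells enlarge and make many ribosomes as they begin to divide, while resting memory T cells are small and make less protein.

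RNA was measured by poly(A) sequencing in 20 libraries, 5 for each of 4 groups. The first group was CD8 T cells at week 4 of culture, expanded for 25 days after activation, and the second CD8 T cells at week 1, expanded for 4 days. The third was CD4 T cells at week 3, expanded for 18 days, and the fourth CD4 T cells at week 1, expanded for 4 days. All cells came from spleen and inguinal lymph nodes, were activated on plates coated with anti-CD3 and anti-CD28 in 1 ng/mL IL-2, and then grew with IL-15 at 50 ng/mL and IL-7 at 10 ng/mL in all 4 groups. Activation lasted 72 h for polyclonal cells of albino B6 mice and 24 h for T cell receptor transgenic cells of Marilyn-BLITC and MataHari-BLITC mice, and the labels do not say which library is which. The cells were sorted as CD44+CD62L+ with a purity above 97%, so each group is a selected fraction of its culture. The labels tie no library to an animal or a culture. The p-values therefore measure only how far these libraries spread, and that spread may be technical. The study asked how long-term expansion in IL-7 and IL-15 changes T cells meant for transfer.

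Library totals ran from 13.3 M to 28.3 M counts. The sorted types bore their markers: Cd8a and Cd8b1 together gave 988 to 2677 CPM (counts scaled to a total of 1000000) in CD8 libraries against 1.6 to 30.7 CPM in CD4 libraries, and Cd4 gave 510.2 to 899 CPM in CD4 libraries and at most 0.585 CPM in CD8 libraries. Of the other cell types' lists, 8 B cell markers summed to 0.178 to 13.6 CPM, 9 macrophage and monocyte markers to 1.58 to 23.3 CPM (C1qa and Lyz2 at 0), 6 dendritic cell markers to at most 36.6 CPM (Clec9a and Siglech at 0), 5 neutrophil markers to at most 0.183 CPM (S100a9 and Elane at 0) and 6 erythroid markers to at most 18.8 CPM (Hbb-bt and Hba-a2 at 0). The 6 NK cell markers summed to 184 to 360 CPM in CD8 and 0.342 to 22.2 CPM in CD4 libraries. Most of the CD8 sum is Eomes, at 188 to 263 CPM at week 4 and 142 to 346 CPM at week 1. Of the others, Klrb1c reached 47.6 CPM and Ncr1 3.60 CPM in CD8 cells at week 4. Of 5 gamma delta T cell markers, 2 were in the count table and summed to 3.52 to 13.9 CPM. The 4 regulatory T cell markers, most of whose sum is Il2ra, gave 152 to 314 CPM in CD8 cells at week 4 against 372 to 788 CPM at week 1, and 370 to 714 CPM in CD4 cells at week 3 against 478 to 1026 CPM at week 1. Foxp3, their defining gene, ran from 0.394 to 45.4 CPM in CD4 cells at week 3 and from 6.25 to 103 CPM at week 1. The part of these lists in the results was not tested. A list of 16 proliferation genes moved with time in culture. It summed to 1440 to 1866 CPM in CD8 cells at week 4 against 2717 to 6492 CPM at week 1, and to 397 to 3188 CPM in CD4 cells at week 3 against 2182 to 4249 CPM at week 1. Libraries that stand apart from their group on this list are CD8 week 1 library 3, the lowest of its group at 2717 CPM, and CD4 week 3 library 2, the highest of its group at 3188 CPM. The sample titles of CD8 libraries fall into separate number ranges, libraries 1 to 3 and libraries 4 and 5 of each time, and no label says what the ranges mean. All CD4 libraries have title numbers in a further range of their own. In bulk libraries, fewer cells with a high level and less RNA per cell cannot be told apart.

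The bases around the annotated start of transcription are shown for the members on which the results turn, because a TOP motif would lie there. Each sequence runs from 20 bases before the start to 20 bases after it, 5′ to 3′, with the start as base 21, from RefSeq promoters on GRCm38.p6. Capitals mark the longest unbroken run of C and T that reaches within 5 bases of the start. Members with the largest rises come first.
Rps28 (chr17:33824542-33824582, minus strand): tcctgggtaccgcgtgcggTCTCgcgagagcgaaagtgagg
Rps21 (chr2:180257359-180257399, plus strand): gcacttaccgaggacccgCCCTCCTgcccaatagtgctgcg
Rps24 (chr14:24490658-24490698, plus strand): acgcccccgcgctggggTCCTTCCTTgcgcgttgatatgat
Rps19 (chr7:24884572-24884612, plus strand): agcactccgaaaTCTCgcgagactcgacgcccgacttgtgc
Rpl12 (chr2:32961692-32961732, plus strand): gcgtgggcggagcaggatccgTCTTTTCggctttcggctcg

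The members without a called rise in either cell type are represented by Rpl41, Rpl28, Rpl7a and Rps15a.
Rpl41 (chr10:128549148-128549188, minus strand): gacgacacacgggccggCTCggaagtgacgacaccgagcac
Rpl28 (chr7:4792945-4792985, plus strand): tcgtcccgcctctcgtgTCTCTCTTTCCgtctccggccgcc
Rpl7a (chr2:26910787-26910827, plus strand): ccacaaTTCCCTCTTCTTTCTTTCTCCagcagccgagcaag
Rps15a (chr7:118116127-118116167, minus strand): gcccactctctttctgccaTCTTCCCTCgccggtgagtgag

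The paralogs Rpl22l1 and Rps27l are shown with Rps27, the gene that Rps27l resembles.
Rpl22l1 (chr3:28805488-28805528, plus strand): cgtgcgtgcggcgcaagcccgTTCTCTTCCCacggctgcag
Rps27l (chr9:66946066-66946106, plus strand): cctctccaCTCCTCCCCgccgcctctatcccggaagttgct
Rps27 (chr3:90213628-90213668, minus strand): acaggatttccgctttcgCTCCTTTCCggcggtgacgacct

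RefSeq promoters were matched to 63 of the 83 members. A pyrimidine run of at least 7 bases reaching within 5 bases of the start was present in 29 of these 63 members (46%), and in 4421 of all 27025 genes with a promoter (16.4%). Where a gene has several starts, the one with the longest run was used for members and other genes alike. The letters CCGGAAG, the core bound by ETS factors, occurred on either strand of the 300 bases in 25 members (39.7%) and in 9.04% of all genes. AAGATGG, the core bound by YY1, occurred on either strand in 10 members (15.9%) and in 6.45% of all genes, and TATAAA in 7 members (11.1%) and 14.1% of all genes. CCGGAAG ends in the letters with which AAGATGG begins, so overlapping matches counted for both, and either can overlap a pyrimidine run when read on the opposite strand. These matches describe the letters of annotated windows, and a transcript that begins elsewhere than the RefSeq start, as can be the case where a gene has several, would have another run there.

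The members together took a larger share of the counts in the long-term cells of both types. Large subunit genes held 4.59, 4.43, 5.0, 4.90 and 4.88% of counts in the 5 CD8 libraries at week 4, against 3.85, 4.10, 4.34, 3.57 and 3.69% in CD8 libraries at week 1. Small subunit genes held 3.68, 3.47, 3.98, 3.85 and 3.76% in CD8 cells at week 4, against 2.97, 3.14, 3.33, 2.80 and 2.89% at week 1. All 5 libraries at week 4 lay above all 5 at week 1 for both subunits, with CD8 week 1 library 3 the nearest. In CD4 cells the large subunit took 5.26, 4.57, 5.32, 5.16 and 5.70% at week 3, against 4.54, 4.09, 4.07, 4.00 and 4.20% at week 1. The small subunit took 4.16, 3.60, 4.27, 4.14 and 4.53% in CD4 cells at week 3, against 3.47, 3.22, 3.17, 3.07 and 3.33% at week 1. The CD4 groups did not overlap either, and the lowest library at week 3, library 2, lay just above the highest at week 1, library 1.

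Over both subunits the members averaged 8.51 ± 0.42% of counts in CD8 cells at week 4 and 6.94 ± 0.52% at week 1 (SD, n = 5 each). In CD4 cells they averaged 9.34 ± 0.75% at week 3 and 7.43 ± 0.36% at week 1 (SD, n = 5 each). The subunits kept nearly the same ratio to each other: large to small subunit counts stood at 1.271 ± 0.018 in CD8 cells at week 4 and 1.292 ± 0.014 at week 1, with overlapping libraries. In CD4 cells the ratio was 1.257 ± 0.010 at week 3 and 1.286 ± 0.019 at week 1, again overlapping.

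In 3 libraries the member share and the proliferation sum stood at opposite ends of their group. CD8 week 1 library 3, with the lowest proliferation sum of its group, had the highest member share of its group at 7.68%, whereas the rest of that group had 6.37 to 7.23%. CD4 week 3 library 2, with the highest proliferation sum of its group, had the lowest member share of its group at 8.17%, whereas the rest of that group had 9.31 to 10.2%. CD4 week 1 library 1 had the lowest proliferation sum of its group, 2182 CPM, and the highest member share, 8.01%. This order did not hold throughout: CD8 week 4 library 3 had both the highest sum, 1866 CPM, and the highest share, 8.98%, of its group, and CD4 week 1 library 4 had the lowest share of its group, 7.07%, beside a sum of 2856 CPM. The part of proliferation in the differences between times was not tested.

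**Figure D1:**
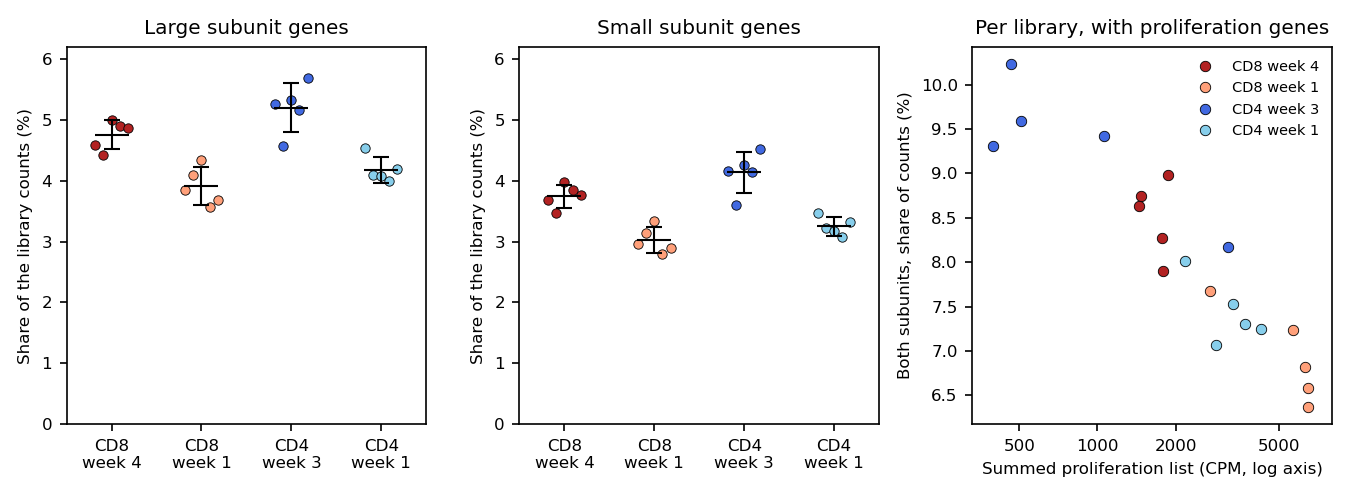
Share of each library's counts in large (left) and small (middle) subunit genes, in percent, for 5 libraries per group (points) with the group mean and SD (bars). The right panel plots the share of both subunits, in percent, against the summed proliferation list in CPM (log axis). Week 4 CD8 libraries lie above all week 1 CD8 libraries and week 3 CD4 libraries above all week 1 CD4 libraries for both subunits.

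In CD8 cells, 60 of the 81 members tested rose at week 4 relative to week 1 and none fell. Here and below, rises and falls are relative to the other genes of a library, and the counts give no amount of RNA per cell. The rise was shallow and broad: the median log2 fold change of the members was 0.33, a fold of 1.26, with the middle of the distribution between 0.24 and 0.41, while the median over all 13290 genes tested was 0.03. Of all genes, 17.1% were called higher and 16.4% lower at edgeR adjusted p under 0.05, against 74.1% and 0% of the members. Large subunit members rose in 36 of 49 cases and small subunit members in 24 of 32. For the 0 members called lower, 0 had a negative change at an unadjusted p under 0.05, and DESeq2 and limma-voom also called 0. The libraries of the times did not overlap, week 4 being higher, for 37 members (45.7%), against 11% of all genes.

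The strongest CD8 rises were mostly in proteins of the small subunit. Rps28 (chr17:33819027-33824562), a small protein near the mRNA exit of the 40S subunit, gave 385, 390.4, 379.9, 435 and 408 CPM in CD8 cells at week 4, against 251, 250.4, 254, 253 and 286 CPM at week 1. Its lowest library at week 4 stood far above its highest at week 1, and the log2 fold change was 0.63 ± 0.07 (SE; edgeR adjusted p = 1.63e-05). Rps21 (chr2:180257377-180258445), another 40S protein, gave 897, 795, 1027, 1009 and 930.5 CPM at week 4, against 586, 638, 625, 570.4 and 594 CPM at week 1. These groups did not overlap either, with a log2 fold change of 0.63 ± 0.08 (edgeR adjusted p = 4.91e-05).

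Rps24 and Rps19, both genes mutated in Diamond-Blackfan anemia in humans, rose by 0.53 ± 0.13 and 0.52 ± 0.09 on the log2 scale in CD8 cells (edgeR adjusted p = 0.00448 and 0.000762). For Rps24, CD8 week 1 library 3, at 1449 CPM, lay above the lowest week 4 library, at 1433 CPM. Rps27, a zinc-binding 40S protein, averaged 1160 ± 52.2 CPM at week 4 and 811 ± 180 CPM at week 1 (SD, n = 5 each; log2 fold change 0.52 ± 0.13, edgeR adjusted p = 0.00736). Rpl12, which binds at the base of the ribosomal stalk, gave 2088, 2145, 2308, 2238 and 2188 CPM at week 4, against 1531, 1683, 1741, 1351 and 1400 CPM at week 1. It was the strongest of the large subunit, at 0.51 ± 0.10 (edgeR adjusted p = 0.00118), with no overlap.

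Fits within each range of CD8 sample titles gave unlike values, and no test compared the ranges. Those fits held only 3 or 2 libraries per time, and the number called depends on their spread as well as on the change. With libraries 1 to 3 alone the median change of the members was 0.24 and 1 member, Rps28, was called higher (adjusted p = 0.0302), whereas with libraries 4 and 5 alone the median was 0.43 and 66 were called. The proliferation sums differed as well: in libraries 1 to 3 they averaged 1812 CPM at week 4 and 4889 CPM at week 1, and in libraries 4 and 5 they averaged 1453 CPM at week 4 and 6471 CPM at week 1. Without CD8 week 1 library 3, 70 members were called higher in CD8 cells.

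In CD4 cells, 59 of the 81 members rose at week 3 relative to week 1 and none fell. The median log2 fold change was 0.36, a fold of 1.28, with the middle of the distribution between 0.26 and 0.41, against a median of 0.01 over all genes. Of all genes 7.67% were called higher and 8.80% lower, and of the members 72.8% and 0%. The large subunit had 33 of 49 members higher and the small subunit 26 of 32. Again 0 members had a negative change at an unadjusted p under 0.05, and DESeq2 and limma-voom also called 0 lower. For 37 members (45.7%) the CD4 libraries of the times did not overlap, against 4.27% of all genes.

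Rps21, Rps28, Rpl12 and Rps19, among the 6 largest CD8 changes, were among the 6 largest CD4 changes too, with Rpl30 and Rpl22l1. Rps21 gave 1119, 923, 1193, 1202 and 1223 CPM at week 3, against 788, 799.5, 712, 725 and 775 CPM at week 1 (log2 fold change 0.57 ± 0.08, edgeR adjusted p = 0.000366). Rps28 gave 479, 416, 526, 530.3 and 534 CPM at week 3, against 363, 371, 331, 335 and 322 CPM at week 1 (0.53 ± 0.07, edgeR adjusted p = 0.000275). In both genes CD4 week 3 library 2 was the lowest of its group and still above all week 1 libraries.

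Rpl12 averaged 2542 ± 363 CPM in CD4 cells at week 3 and 1784 ± 175 CPM at week 1, a log2 fold change of 0.51 ± 0.10 (edgeR adjusted p = 0.00346). Rps19 rose by 0.50 ± 0.09 (edgeR adjusted p = 0.00283). Rpl30, a 60S protein, gave 737, 678, 805, 803 and 839 CPM at week 3, against 565, 557, 522, 524 and 553 CPM at week 1, without overlap (0.50 ± 0.15, edgeR adjusted p = 0.0272). Rpl30 has 9 named pseudogenes and Rps19 has 14, so reads that match several copies would be missing from their counts. The largest CD4 rise of any member was that of the paralog Rpl22l1.

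Both long-term comparisons called 50 of the members, 83.3% of those called in CD8 and 84.7% of those called in CD4 cells. The like overlap over all genes is not given, so these shares describe the members only. Another 10 were called in CD8 cells only and 9 in CD4 cells only, and no test showed these to differ between the cell types. The difference of the changes (CD8 minus CD4) had a median of −0.00 over the members, and edgeR called 0 members higher and 0 lower, against 0.248% and 0.406% of all genes. At an unadjusted p under 0.05, 1 member had a positive and 2 a negative difference, limma-voom called 0 and DESeq2 called 1, Rpl22l1. Across the 76 standard members of at least 10 CPM, the CD8 and CD4 changes had a Pearson r of 0.68, given as a description, since genes are not independent replicates and the groups were scaled together. CD8 and CD4 changes share no library.

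**Figure D2:**
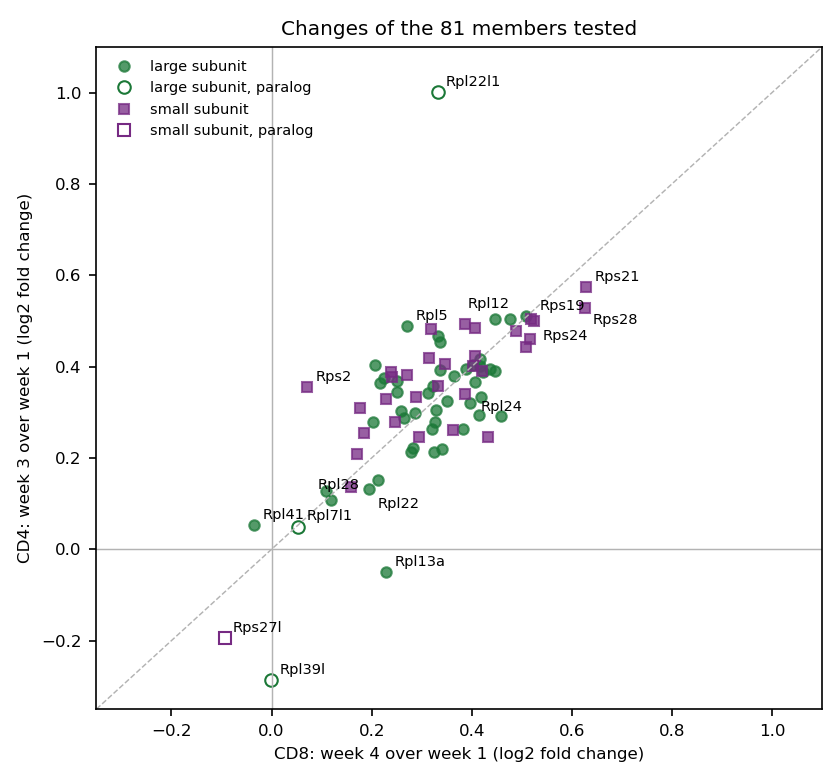
Log2 fold change of each of the 81 members tested in CD8 cells (week 4 over week 1, horizontal) and CD4 cells (week 3 over week 1, vertical), with large subunit genes as circles, small subunit genes as squares and paralogs as open symbols. The dashed line marks equal change. Most members lie between 0.2 and 0.6 on both axes, and Rpl22l1 stands alone at 0.33 and 1.00.

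**Figure D3:**
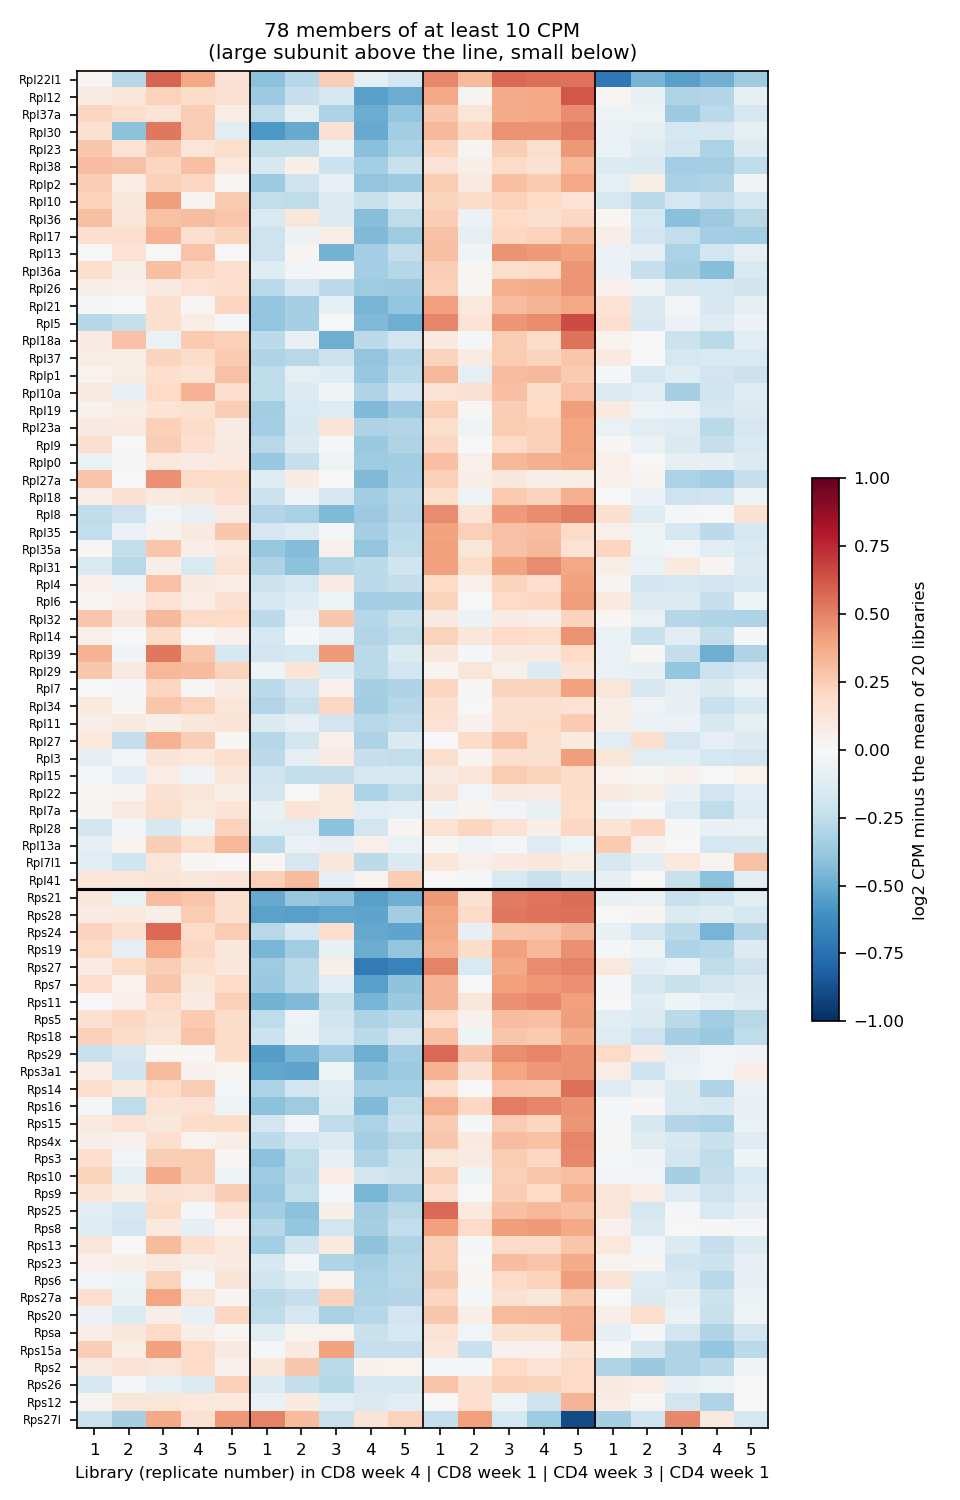
Log2 CPM of 78 of the 79 members of at least 10 CPM in each library, minus the gene's mean over the 20 libraries, with the 4 groups of 5 libraries separated by vertical lines. Within each subunit, genes are ordered by the mean of their CD8 and CD4 changes. Long-term libraries are red and week 1 libraries blue for most rows, with CD4 week 3 library 2 paler than the rest of its group.

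The proteins of the ribosomal stalk, which recruits elongation factors, rose together in both types. Rplp0 averaged 3035 ± 166 CPM in CD8 cells at week 4 and 2444 ± 244 CPM at week 1, a log2 fold change of 0.31 ± 0.08 (edgeR adjusted p = 0.00592). In CD4 cells Rplp0 averaged 3597 ± 316 CPM at week 3 and 2838 ± 149 CPM at week 1 (0.34 ± 0.08, edgeR adjusted p = 0.00867). Rplp1 rose by 0.36 in CD8 and 0.38 in CD4 cells (edgeR adjusted p = 0.00352 and 0.00755), and Rplp2 by 0.44 and 0.39 (edgeR adjusted p = 0.00136 and 0.00704). All 3 stalk genes thus passed in both cell types.

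Rpl5 and Rpl11 carry the 5S ribosomal RNA into the large subunit and, when free of it, bind the p53 regulator MDM2. Rpl11 gave 1043, 1062, 1037, 1076 and 1097 CPM in CD8 cells at week 4, against 899.8, 936, 876, 822 and 834 CPM at week 1 (0.28 ± 0.06, edgeR adjusted p = 0.00147). Rpl11 rose in CD4 cells too, by 0.22 ± 0.06 (edgeR adjusted p = 0.0149). Rpl5 rose in CD4 cells, with 1544 ± 193 CPM at week 3 and 1101 ± 103 CPM at week 1 (0.49 ± 0.11, edgeR adjusted p = 0.00871). In CD8 cells Rpl5 averaged 1095 ± 144 CPM at week 4 and 908 ± 131 CPM at week 1 and did not pass (edgeR adjusted p = 0.0691). CD8 week 1 library 3 was the highest of its group for Rpl5, at 1134 CPM against 807 to 898 CPM. The difference of the Rpl5 changes did not pass (adjusted p = 0.654).

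Among proteins of the small subunit with known further roles, Rps6, the target of S6 kinases, rose in CD4 cells by 0.33 ± 0.09 (edgeR adjusted p = 0.0199). In CD8 cells Rps6 averaged 953.5 ± 79.1 CPM at week 4 and 813.5 ± 79.8 CPM at week 1 and missed the threshold (adjusted p = 0.0563). Rpsa, also known as the laminin receptor precursor, rose in CD4 cells by 0.31 ± 0.08 (edgeR adjusted p = 0.0131) and had a log2 fold change of 0.18 in CD8 cells (adjusted p = 0.0845). Rps27a, made as a fusion with ubiquitin, rose in CD8 cells by 0.29 ± 0.10 (edgeR adjusted p = 0.0321) and had 0.25 in CD4 cells (adjusted p = 0.0995). None of these 3 genes differed between the cell types in a test of the difference, the smallest adjusted p over all members being 0.121.

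Of the 4 paralogs tested, edgeR called Rpl22l1 alone between times, in CD4 cells, and no test compared the paralogs with the standard genes. Rpl22l1 (chr3:28805436-28807424) encodes a paralog of Rpl22, an RNA-binding protein of the large subunit that mouse αβ T cell development requires. Rpl22l1 gave 135, 121, 144, 142 and 141 CPM in CD4 cells at week 3, against 59.2, 70.2, 66.7, 69.4 and 75.7 CPM at week 1. The CD4 groups were far apart, with a log2 fold change of 1.00 ± 0.14, a fold of 2.00 (edgeR adjusted p = 0.000292). In CD8 cells Rpl22l1 gave 98.3, 79.5, 145, 127 and 107 CPM at week 4, against 73.0, 79.5, 115, 90.5 and 85.1 CPM at week 1. These libraries overlapped and the change of 0.33 ± 0.14 did not pass (adjusted p = 0.0676). The difference of the Rpl22l1 changes was −0.67 ± 0.19 and did not pass in edgeR (adjusted p = 0.121), whereas DESeq2 called it (adjusted p = 0.0345). Over the other alternatives that adjusted p ran from 0.0539 without CD8 week 4 library 3 to 0.356 within CD8 libraries 1 to 3.

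Its parent Rpl22 averaged 734 ± 30.4 CPM in CD8 cells at week 4 and 641 ± 77.8 CPM at week 1, and 742 ± 39.9 CPM in CD4 cells at week 3 and 677 ± 55.1 CPM at week 1. Neither change passed, at log2 fold changes of 0.19 (adjusted p = 0.0602) and 0.13 (adjusted p = 0.246). Rpl22l1 shares no exon bases with another gene on its strand and has no pseudogene named after it. Copies annotated under other names were not looked for.

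Rps27l, a paralog of Rps27 induced by p53, had 63.2 ± 14.5 CPM in CD8 cells at week 4 and 67.5 ± 12 CPM at week 1, and 51.3 ± 16.8 CPM in CD4 cells at week 3 and 58.7 ± 14.1 CPM at week 1. Its libraries overlapped in both types, with log2 fold changes of −0.09 and −0.19 (adjusted p = 0.763 and 0.548), while Rps27 rose in both. Rpl7l1, which acts in ribosome assembly, had log2 fold changes of 0.05 in CD8 and 0.05 in CD4 cells (adjusted p = 0.671 and 0.727), while Rpl7 rose by 0.27 and 0.29 (edgeR adjusted p = 0.0231 and 0.0292). Rpl39l, known from the male germline, stayed under 2 CPM in every library, and its parent Rpl39 had log2 fold changes of 0.26 and 0.30 that did not pass (adjusted p = 0.16 and 0.139).

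Rpl3l, a striated muscle paralog of Rpl3, had 0 counts in CD8 cells at week 4, 3 counts at week 1, 0 counts in CD4 cells at week 3 and 1 count at week 1. Rpl10l, a testis gene, had 0 counts in all groups, which allows up to 0.0260 to 0.0321 CPM per group (3 counts over the group). Its parent Rpl10 gave 695, 641, 793, 606 and 712 CPM in CD8 cells at week 4, against 499.9, 497, 541, 509 and 538 CPM at week 1, without overlap (0.42 ± 0.06, edgeR adjusted p = 0.000172). Rpl3 rose in CD4 cells by 0.28 ± 0.09 (edgeR adjusted p = 0.0387) and had 0.20 in CD8 cells (adjusted p = 0.0866).

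**Figure D4:**
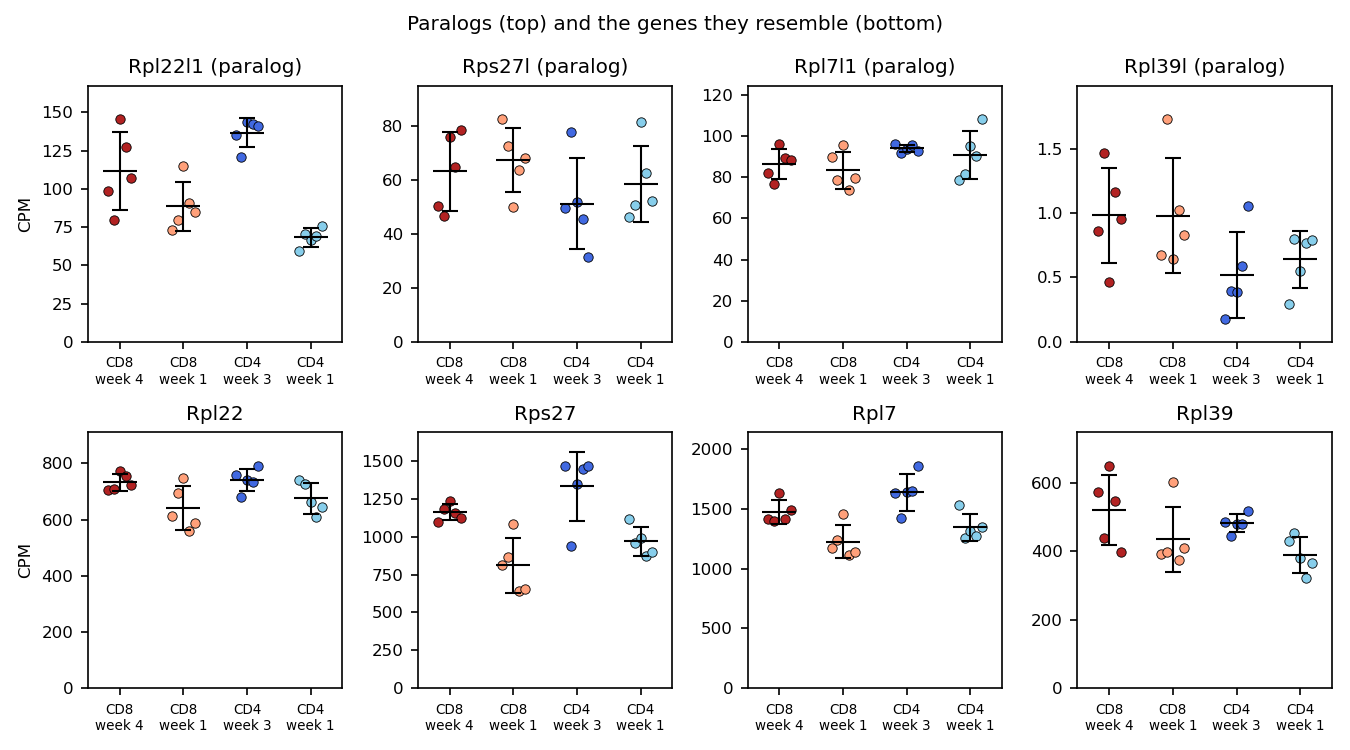
CPM of 4 tested paralogs (top) and the standard genes they resemble (bottom) in each library, with group means and SD (bars, n = 5). Rpl22l1 lies at 121 to 144 CPM in CD4 cells at week 3 and 59.2 to 75.7 CPM at week 1, and Rps27l, Rpl7l1 and Rpl39l overlap between times.

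Neither comparison called 12 of the 81 members: Rpl13a, Rpl22, Rpl24, Rpl28, Rpl39, Rpl39l, Rpl41, Rpl7a, Rpl7l1, Rps12, Rps15a and Rps27l. Rpl41, which encodes one of the shortest known proteins, gave 496, 494, 497, 494 and 498 CPM in CD8 cells at week 4, against 538, 567, 426, 468 and 542 CPM at week 1. The week 4 libraries were nearly identical to each other, and the log2 fold change was −0.04 in CD8 and 0.05 in CD4 cells (adjusted p = 0.77 and 0.683), values whose sign depends on single libraries. Rps12 averaged 1431 ± 35.7 CPM in CD8 cells at week 4 and 1282 ± 85.0 CPM at week 1 and has 23 named pseudogenes. Rpl24 drew 470 counts in all 20 libraries together, and 47.0% of its exon bases are shared on the same strand with the annotated gene Gm28037, whose reads cannot be assigned to either. Rpl13a, with group means of 26.9 to 30.8 CPM per kb of exon (RPKM), shares 35.4% of its exon bases with a microRNA, a small nucleolar RNA and Gm45713. The values of Rpl24 and Rpl13a describe the reads that could be assigned. The part of the shared bases in their low levels and missing calls was not tested.

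A pyrimidine run near the annotated start did not separate members that rose from those that did not. Such a run can lie wholly before the start, as in Rpl4 and Rpl19. The split therefore describes annotated windows, and whether a TOP motif in the transcript goes with the rise was not tested. Among standard members with a promoter, 19 of 26 with a run of at least 7 rose in CD8 cells (median log2 fold change 0.33) and 23 of 31 with a shorter run (0.33). In CD4 cells 17 of 26 with such a run rose (0.34) and 24 of 31 without (0.36). Among the sequences printed above for the largest rises, Rps21, Rps24 and Rpl12 have runs of 7, 9 and 7 bases, and Rps28 and Rps19 have runs of 4. Among those printed for no called rise, Rpl28, Rpl7a and Rps15a have runs of 11, 21 and 9 bases, and Rpl41 has a run of 3.

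Levels per length spread widely among members. In RPKM, the CPM on library totals per kb of merged exon, the standard large subunit genes had a median of 396 over the 20 libraries and ran from 1.04 to 4292, and the standard small subunit genes had a median of 654 and ran from 151 to 2826. Rplp1 was highest, at 4638 ± 352 RPKM in CD8 cells at week 4, 3694 ± 300.5 at week 1, 4956 ± 570.1 in CD4 cells at week 3 and 3882 ± 200.2 at week 1 (SD, n = 5). Rps12 and Rps15 followed in the small subunit, at 2826 and 2296 RPKM over all libraries, and Rpl8 and Rpl4 in the large subunit, at 2215 and 1854 RPKM. Rpl8 lies beside the peptidyl transferase centre and Rpl4 lines the exit tunnel. Rps26, which contacts mRNA near the exit, had 1681 RPKM.

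At the low end of those tested stood Rpl13a, Rpl24 and Rpl39l in the large subunit, at 28.3, 1.04 and 0.939 RPKM, and Rps15a, Rps19 and Rps27l in the small subunit, at 176, 151 and 73.8 RPKM. In 79 of the 82 pairs of neighbours in this order the ranges over the 20 libraries overlapped, so the order of close neighbours is not resolved. Merged exons include rarely used exons and retained introns, 6270 bases for Rps15a and 4685 for Rps19, which lowers their level per length. The median coefficient of variation of members of at least 10 CPM was 7.12% in CD8 cells at week 4 (10.9% over all genes of at least 10 CPM) and 10.2% at week 1 (12.5%). In CD4 cells it was 9.05% at week 3 (10.7%) and 8.22% at week 1 (12.4%). The genes compared were not matched to the members in level.

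Between cell types, more members were lower than higher in CD8 relative to CD4 cells at both times. CD8 and CD4 libraries share no range of title numbers, so cell type and title range cannot be told apart here. Title range as a term in the fit parts the CD8 ranges only. At week 1, 18 of 81 members were lower in CD8 cells (22.2%, against 19% of all genes) and 3 were higher, Rpl22l1, Rpl41 and Rps2 (3.7%, against 19.1%). In long-term cells, where the times also differ (week 4 and week 3), 19 were lower in CD8 (23.5%, against 15%) and 1 was higher, Rpl41 (1.23%, against 17.7%). The median log2 difference, CD8 over CD4, was −0.11 at week 1 and −0.10 long-term, and over all genes −0.01 and 0.01. At week 1 the lower members were 11 of 32 in the small subunit (34.4%) and 7 of 49 in the large (14.3%), against 19% of all genes. Long-term they were 12 of 32 (37.5%) and 7 of 49 (14.3%), against 15%. No test compared the subunits. The week 1 and long-term comparisons share no library, and 15 members were lower in both, 83.3% of those at week 1 and 78.9% of those long-term. The like overlap over all genes is not given, so this count describes the members only.

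Libraries of the cell types did not overlap, CD8 being lower, for 10 members at week 1 (12.3%, against 11.3% of all genes) and 6 long-term (7.41%, against 9.30%). The counts depend on the libraries that stand apart. Without CD8 week 1 library 3, 29 members were lower in CD8 at week 1. Long-term, 28 were lower without CD4 week 3 library 2, 12 without CD8 week 4 library 2, and 8 without CD8 week 4 libraries 1 and 2 together.

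Rps29, a small zinc-binding 40S protein (chr12:69157722-69159186), gave 464, 494, 536, 482 and 532 CPM in CD8 cells at week 1, against 774, 716, 642, 665 and 661 CPM in CD4 cells at week 1. In long-term cells it gave 581, 604, 687, 684 and 770.0 CPM in CD8 cells and 1006, 816, 934, 953 and 928 CPM in CD4 cells. CD8 libraries lay below all CD4 libraries at both times, at log2 differences of −0.46 ± 0.08 and −0.48 ± 0.08 (edgeR adjusted p = 0.000243 and 0.000186).

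Rpl8, the 60S protein named above (chr15:76904071-76906318), averaged 1478 ± 63.5 CPM in CD8 and 1926 ± 158 CPM in CD4 cells at week 1, and 1758 ± 167 CPM in CD8 and 2487 ± 245 CPM in CD4 cells long-term. It was lower in CD8 cells at both times without overlap (−0.38 and −0.50, edgeR adjusted p = 0.00148 and 0.000153). Rps28 was lower in CD8 cells at week 1 (−0.41 ± 0.07, edgeR adjusted p = 0.00025), and Rpl5 was lower long-term (−0.50 ± 0.11, edgeR adjusted p = 0.00236).

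Rpl41 was higher in CD8 cells, at 508 ± 58.9 CPM against 408 ± 42.9 CPM in CD4 cells at week 1 (0.32 ± 0.08, edgeR adjusted p = 0.00541). Long-term it had 496 ± 1.96 CPM in CD8 and 424 ± 27.5 CPM in CD4 cells (0.23 ± 0.08, edgeR adjusted p = 0.0399), a call lost when any CD8 week 4 library, or CD4 week 3 library 3, 4 or 5, was left out (adjusted p of 0.0601 to 0.105). It was also lost with the title range as a term (0.0622), with no filter (0.0759), with the length trend removed (0.109), without CD8 week 4 libraries 1 and 2 together (0.122) and within CD8 libraries 1 to 3 (0.112) or 4 and 5 (0.181). Rps2, a 40S protein near the mRNA entry, was higher in CD8 cells at week 1 (1180 ± 156 CPM against 959 ± 88.4 CPM in CD4 cells, edgeR adjusted p = 0.0109), with 10 named pseudogenes as a limit on its count. Rpl22l1 averaged 88.6 ± 16.1 CPM in CD8 and 68.3 ± 6.0 CPM in CD4 cells at week 1 (0.38 ± 0.14, edgeR adjusted p = 0.0365). That call was lost when CD8 week 1 library 3, 4 or 5 or CD4 week 1 library 1, 3 or 4 was left out (adjusted p of 0.0506 to 0.104), with no filter (0.0651), with the title range as a term (0.0718), without CD4 week 3 library 2 and CD8 week 1 library 3 together (0.0773) and within CD8 libraries 1 to 3 (0.113).

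**Figure D5:**
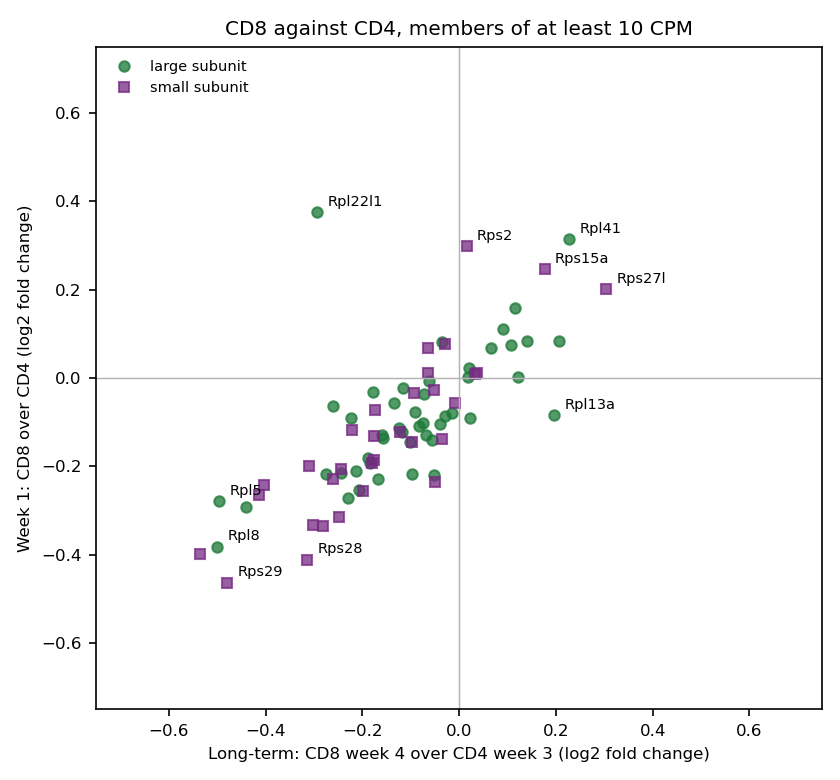
Log2 difference of each member of at least 10 CPM between CD8 and CD4 cells, long-term (CD8 week 4 over CD4 week 3, horizontal) and at week 1 (vertical), with large subunit genes as circles and small subunit genes as squares. Most points lie below and left of 0, with Rps29 and Rpl8 among the lowest, and Rpl22l1 lies at 0.38 at week 1 and −0.29 long-term.

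Of the ribosomal proteins whose symbols fall outside the pattern, Rack1, a scaffold protein on the 40S subunit, rose in both types, with 2694 CPM in CD8 cells at week 4 and 2229 CPM at week 1, and 2999 CPM in CD4 cells at week 3 and 2331 CPM at week 1 (edgeR adjusted p = 0.0104 and 0.00522). Fau, which encodes a ubiquitin-like protein fused to a 40S protein, had log2 fold changes of 0.25 and 0.20 that did not pass (adjusted p = 0.0897 and 0.212). Of 17 other TOP mRNAs, for translation factors and related proteins, 7 rose and 2 fell in CD8 cells (median log2 fold change 0.21), where 17.1% of all genes were higher and 16.4% lower, and 5 rose in CD4 cells (0.15), where 7.67% of all genes were higher and 8.80% lower. None of the 17 fell in CD4 cells by edgeR, at an unadjusted p under 0.05, by DESeq2 or by limma-voom. Eef1b2, a subunit of elongation factor 1, rose in both (0.43 and 0.40, edgeR adjusted p = 0.00162 and 0.00687), and Hnrnpa1, a splicing factor, fell by 0.59 in CD8 cells (edgeR adjusted p = 0.000291).

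Few genes that assemble ribosomes were called. Of 29 genes of ribosome biogenesis and RNA polymerase I, edgeR called 0 in CD8 cells (median 0.01), where 2 were higher and 1 lower at an unadjusted p under 0.05, DESeq2 called 1 lower and limma-voom 0. In CD4 cells 1 of the 29 rose, Polr1c (median 0.05). Of 7 dedicated chaperones of ribosomal proteins, edgeR and DESeq2 called 0 in either type, limma-voom called 1 higher in CD8 cells, and 1 in CD8 and 0 in CD4 cells had an unadjusted p under 0.05. The 77 tested mitochondrial ribosomal proteins, which build the separate ribosome of mitochondria, had 2 higher and 18 lower in CD8 cells (median −0.17), beside 17.1% and 16.4% of all genes. In CD4 cells they had 3 higher and 13 lower (−0.15), beside 7.67% and 8.80% of all genes.

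Of 16 genes around mTOR and LARP1, 5 rose and 2 fell in CD8 cells (all genes: 17.1% higher, 16.4% lower) and 2 rose and 1 fell in CD4 cells (all genes: 7.67% higher, 8.80% lower). Rptor, the mTORC1 scaffold, rose in CD8 cells (113 CPM at week 4 and 70.7 CPM at week 1, edgeR adjusted p = 7.7e-05). Akt1s1 rose there too (31.5 CPM at week 4 and 20.9 CPM at week 1, edgeR adjusted p = 0.000153). The 2 that rose in CD4 cells were Eif4ebp2 and Sesn2 (edgeR adjusted p = 0.0349 and 0.0472). Eif4e, the cap-binding protein, fell in both types (log2 fold changes of −0.59 and −0.35, edgeR adjusted p = 0.00107 and 0.0435). Of 8 genes of p53 and its targets, 4 rose in CD8 and 1, Sesn2, in CD4 cells, beside the same shares of all genes. Among those in CD8 cells were Trp53, Zmat3 and Bax (edgeR adjusted p = 0.0167, 0.0198 and 0.0204). All 16 proliferation genes fell in CD8 cells (median −1.92) and 6 of 16 in CD4 cells (median −1.57), where DESeq2 called 11 and limma-voom 16 lower.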

How the data were processed

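Poly(A) RNA of sorted CD8 and CD4 T cells was sequenced in 20 stranded libraries, 5 per group. The deposited table holds raw read counts per gene: per the file headers the authors counted reads with featureCounts 1.6.3 (reverse stranded, GENCODE M12), and per the submitters' processing notes they aligned with STAR to mm10. The headers show no setting that would count reads with several matches, so members with pseudogenes or shared exons may be counted low. Names were taken from GENCODE M21 on GRCm38 (49412 of 49671 genes). Unnamed genes held 0.012 to 0.023% of counts. The only other column used, per the file headers, is the merged exon length.

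The tests used edgeR 4.0.16 under R 4.3.3, with filterByExpr, TMM factors, a quasi-likelihood fit of the means of all 4 groups, and Benjamini-Hochberg adjustment over 13290 genes at 0.05. SE is the log2 fold change over the square root of F. CPM of members are on TMM-scaled library sizes, and shares, RPKM, marker and proliferation values are on library totals. DESeq2 1.42.0, limma 3.58.1 and other scalings, filters and sample sets were alternatives. Fits were tested on simulated data. Python 3.11.15, numpy 2.4.6, pandas 2.3.3 and matplotlib 3.10.9 gave the rest.

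Members and lists were chosen with earlier results of these data known. Named members are the 6 largest called changes per long-term comparison and 4 per other comparison (at least 10 CPM), paralogs with parents, Rplp0, Rplp1, Rplp2, Rpl5, Rpl11, Rps6, Rps27a and Rpsa, and 3 highest and lowest per length in each subunit, 37 tested genes in all, of which 1 is not reported here; members outside this rule were named after their values were seen. Of other lists, the called genes named are among the 3 with the smallest adjusted p in a comparison, and not all of these are named. The labels give no pairing. Over 40 pairs of replicates the chi-square per degree of freedom ran from 5.9 to 141, so no pair differed by counting error alone. Repeated libraries of one culture or animal are not excluded by this. Intervals for counts of 0 cover counting error only.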

Additional observations from a re-analysis of the deposited data

Results flagged for a closer look

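Among 156 groups of 5 libraries (the members named here and the subunit shares), 18 held a library whose gap to the others exceeded 0.71 of the group's range. Chance gives about 1 in 20 such groups, and genes of one library are not independent. CD8 week 1 library 3 accounted for 6 of them and was the highest each time. It had 655.9 CPM of Rpl30, 1134 of Rpl5, 603.2 of Rpl39, 935.3 of Rps27a, 3918 of Rpl4 and 1.7 of Rpl24. CD4 week 3 library 2 accounted for 5 and was the lowest each time. It had 1216 CPM of Rps24, 937.4 of Rps27, 2059 of Rpl8, 3051 of Rplp0 and 1985 of Rplp1. These libraries also had the lowest and the highest proliferation sum of their groups, and the part of proliferation in these values was not tested.

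CD8 week 4 library 3 was highest for Rps24 (1910 CPM, against 1433 to 1535) and Rps4x (1894 CPM, against 1726 to 1771). CD8 week 4 library 1 was lowest for Rps12 (1370 CPM, against 1438 to 1457), and CD8 week 1 library 5 highest for Rps28 (286.1 CPM, against 250.4 to 254.4). In CD4 cells at week 1, library 1 was highest for Rpl3 (2182 CPM) and Rpl4 (3773 CPM), and library 5 was highest for Rps2 (1111 CPM, against 881.5 to 944.9).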

How the results depend on the processing

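The members called higher numbered 53 to 66 in CD8 and 53 to 68 in CD4 cells under other scalings, tools, filters and sample sets apart from the following: 52 and 46 in fits of the groups compared alone, and 1 within CD8 libraries 1 to 3 of each time (median 0.24; 0.426 within libraries 4 and 5). Leaving out each library gave 49 to 70 in CD8 and 48 to 65 in CD4 cells. Members lower in CD8 than CD4 cells at week 1 numbered 29 without CD4 week 3 library 2 and CD8 week 1 library 3 together and 10 within CD8 libraries 1 to 3 (one library left out: 12 to 29), with a median of −0.202 within libraries 4 and 5. Long-term they numbered 35 without those libraries together, 8 without CD8 week 4 libraries 1 and 2 and 9 within libraries 4 and 5 (one left out: 12 to 28). Members higher long-term numbered 2 by DESeq2 (Rpl29 and Rpl41) and without the pair of libraries (Rpl41 and Rps27l), 0 with no filter, with the length trend removed and within either CD8 range, and 0 to 1 with one library left out. In the difference, 1 member was lower by DESeq2 (Rpl22l1) and 1 without the pair of libraries (Rps2), and its median was 0.099 within libraries 4 and 5.

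Changes near 0 turned sign. Rpl39l in CD8 cells was 0.001 with factors computed without the members, 0.011 with no filter and 0.148 within libraries 4 and 5 (one left out: −0.176 to 0.293). Rps27l in CD8 cells was 0.116 without CD8 week 4 libraries 1 and 2 and 0.102 within libraries 4 and 5, Rps2 in CD8 cells −0.024 without the pair, and Rpl7l1 in CD8 cells −0.065 within libraries 1 to 3. Rps2 between cell types long-term was −0.014 with the length trend removed, −0.023 without the pair and −0.005 in the fit of those groups alone (one left out: −0.020 to 0.040). With one library left out, Rpl41 ran from −0.092 to 0.007 in CD8 and −0.003 to 0.094 in CD4 cells, and Rpl13a from −0.093 to 0.022 in CD4 cells. The cause of these shifts was not tested. No paired analysis was run because the labels give no pairing. In order of title number, week 1 and long-term libraries alternate, and no label says whether neighbours come from one culture. Depth limits Rpl24 and Rpl39l, each at most 2.19 CPM.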

Other observations

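Over the 20 libraries, the genes outside the members whose log2 CPM followed the summed member level most closely were Rack1, Herpud2, Eef1b2, Mrpl24 and Eif3k, among genes of at least 10 CPM. Herpud2, a membrane protein of the ubiquitin-like family, averaged 73.3 CPM in CD8 cells at week 4 and 57.1 CPM at week 1, and 78.0 CPM in CD4 cells at week 3 and 62.4 CPM at week 1. Mrpl24, of the mitochondrial large subunit, averaged 133 CPM in CD8 cells at week 4 and 94.7 CPM at week 1, and 136 CPM in CD4 cells at week 3 and 109 CPM at week 1, whereas the median of its family was negative in both comparisons. Eif3k, of initiation factor 3, averaged 234 CPM in CD8 cells at week 4 and 194 CPM at week 1, and 239 CPM in CD4 cells at week 3 and 209.6 CPM at week 1. The libraries fall into groups by time, so such likeness can come from the difference between times alone.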
